A study of Mus musculus with 15 samples.

Results

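AOM/DSS treatment was set against no treatment in the mouse colon over both genotypes at once, to ask which transcript levels differ at D26 whether or not Irf1 is intact. The 6 colons taken at D26, 3 from B6 and 3 from Irf1-/- mice, were compared with 9 untreated colons, 3 each from B6 control set 1, B6 control set 2 and Irf1-/- mice. All 15 of the 15 libraries entered, each once, in a model with a term for genotype and a term for treatment. The genes were those present in all 3 deposited tables, 12370 of the 12897 in any of them, so that every gene had a count in every library.

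The study followed colonic gene expression in wildtype C57BL/6 (B6) mice and in C57BL/6 mice lacking Irf1 (Irf1-/-). Its methods name the B6 mice as C57BL/6J. Treated mice were injected with azoxymethane (AOM), a carcinogen that alkylates DNA, at 7 mg/kg on D1, drank 2% dextran sodium sulfate (DSS), which injures the colonic epithelium, from D8 to D11 and were killed on D26. An age of 8 to 10 weeks is given for the mice of the AOM/DSS model, while ages of the untreated mice and the sex of the sequenced mice are not given in the sources used here. RNA of the distal colon, depleted of rRNA and made into stranded libraries, gave 22266607 to 22869853 counted reads per library. AOM and DSS were always given together, so their shares in a change cannot be told apart. The colon was taken as a whole tissue, so fewer cells of a type and less RNA per cell cannot be told apart either. Levels are given as CPM, the counts of a gene scaled to a common library total, which does not adjust for gene length. For a group, the median library is given, with the lowest and the highest in brackets.

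Irf1, the transcription factor absent by genotype, was counted at 161, 155 and 144 CPM in control set 1 and at 141, 128 and 130.5 CPM in control set 2. Untreated Irf1-/- colons held 79.4, 117 and 87.6 CPM. At D26 the values were 173, 223 and 227 CPM in B6 and 108, 123 and 99.97 CPM in Irf1-/- colons. The Irf1-/- libraries were thus the lowest 6 of the 15, yet reads on the gene persisted in them, and totals per gene do not show which exons they came from. The common treatment effect on Irf1 was a log2 FC (fold change, D26 over untreated) of 0.41 ± 0.094 (standard error), with an edgeR adjusted p = 0.00714, short of the fold of 1.5 used for calls. Adjusted p-values are those of the quasi-likelihood test in edgeR, adjusted over all 12370 genes by the Benjamini-Hochberg method. They set an effect against the spread between these samples that the terms of the model leave.

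Some D26 libraries stood apart before any treatment effect was considered. Xist, the RNA of the inactive X chromosome, was at 25.2, 5.97 and 2328 CPM in the B6 colons at D26 and at 11.6, 1802 and 888 CPM in the Irf1-/- colons at D26, against 2061 CPM (321 to 3729) in the 9 untreated colons. So 3 of 6 treated libraries (B6 replicates 1 and 2, Irf1-/- replicate 1) and no untreated library lay far below the rest, while the Y-linked genes Ddx3y, Eif2s3y, Kdm5d and Uty were in none of the 3 tables. No table holds more than 2 of the low-Xist libraries, so a gene counted only in them would not have passed the filter of 5 CPM in 3 libraries of a table, and this absence says nothing of the sex of the mice. Because low Xist occurred in treated colons alone, whatever goes with it cannot be told apart from treatment in those 3 libraries, and counts of called genes are given below with and without them. The B6 libraries at D26 also stood apart in how their counts related to gene GC content, with slopes of 0.207, 0.141 and 0.307 log2 units per 10% GC against -0.134 to 0.035 in the other 12 libraries.

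**Figure D1:**
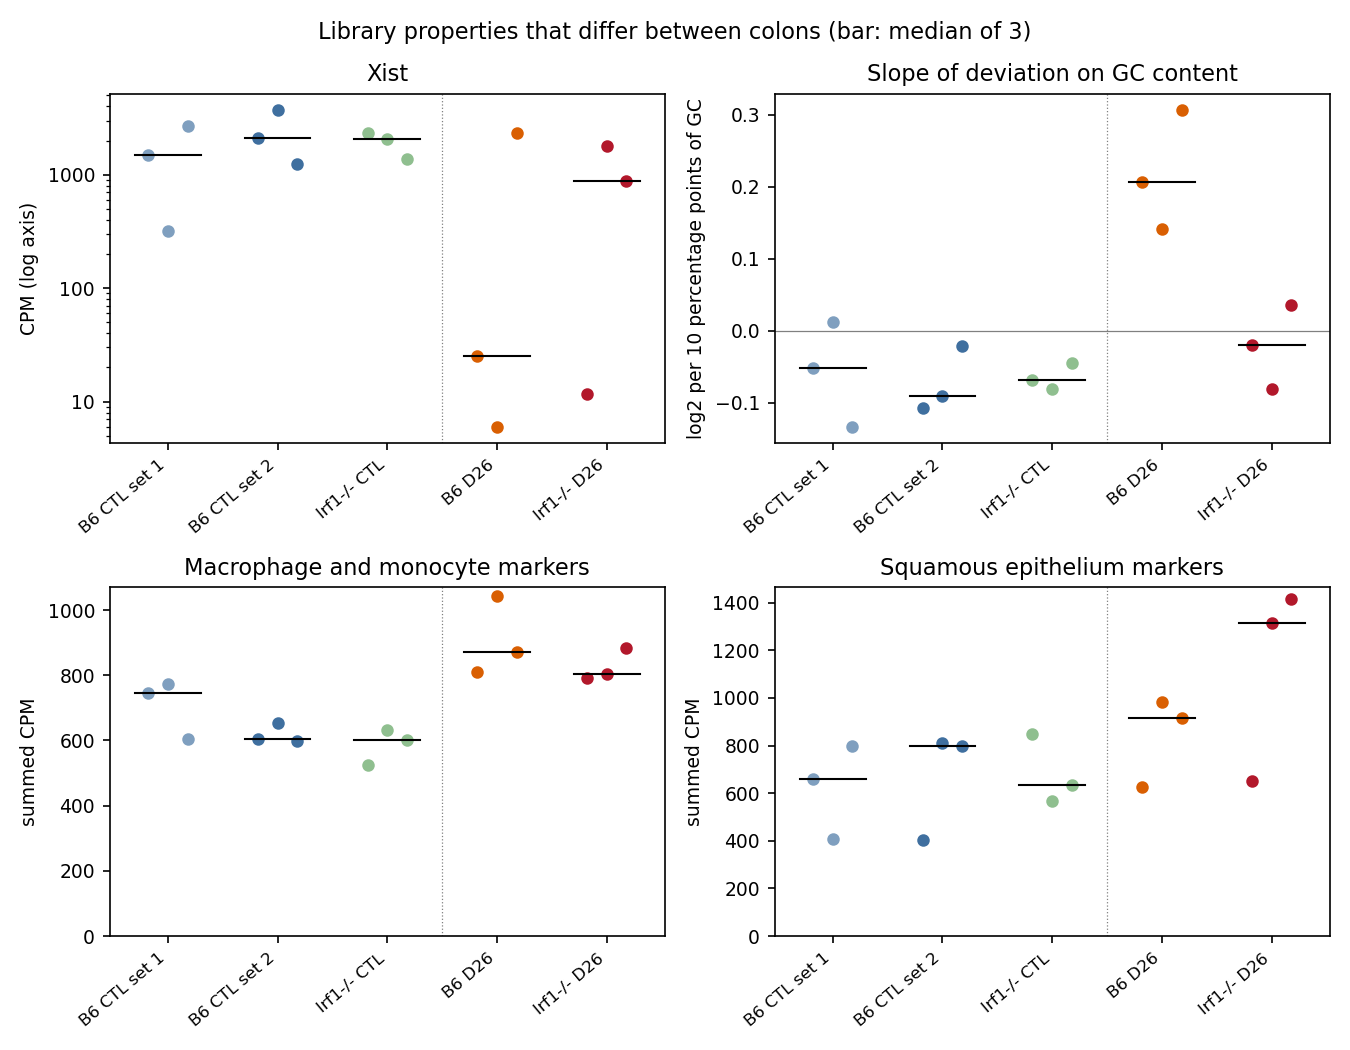
Level of Xist (CPM, log axis), slope of each library's log2 deviation on gene GC content, and summed CPM of macrophage and squamous epithelium markers in each of the 15 colons (points, with the median of 3 as a bar), by group (CTL, untreated). Low Xist is seen in 3 of the 6 D26 libraries and steep GC slopes in the 3 B6 libraries at D26.

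Markers of colon were present in every library. All 12 colonocyte and all 6 goblet cell markers were tested, and the colonocyte sum was 5799 CPM (4689 to 6675) untreated and 5463 CPM (4646 to 6083) at D26, with Epcam the most abundant. Of 10 small intestinal markers only Lyz1 was tested, and Sis, Lct, Fabp6, Alpi, Apoa4 and the others were in none of the 3 tables. All 12 markers of squamous epithelium, which lines the anal canal, were tested and present in all colons, so the pieces of tissue labelled colon also held RNA of stratified epithelium. All 16 smooth muscle markers were tested with a median log2 FC of 0.014 and 0 called, and 8 of 9 skeletal muscle markers were tested with 0 called and a median log2 FC of -0.26, which was 0.24 in B6 and -0.83 in Irf1-/- mice.

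In the colon, a single layer of epithelium renewed from crypt stem cells separates bacteria from immune cells. After chemical injury this layer is rebuilt while neutrophils and monocytes enter, complement and antimicrobial proteins are made locally, and wound-type keratins and fetal-like surface genes can appear at the edges of ulcers. AOM is activated by liver and gut enzymes to a methylating species, and with DSS colitis it leads to tumors of the distal colon weeks after the last exposure.

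Of the 12370 genes, 136 were called up and 58 down at D26 (1.1% and 0.469% of genes, 1.57% together), with a fold of at least 1.5 and an adjusted p under 0.01, the thresholds of the study. At an unadjusted p under 0.05 there were 4645 genes, and the median log2 FC of all genes was -0.0018. All 6 D26 libraries lay above all 9 untreated libraries for 171 genes (1.38%) and below them for 110 (0.889%). Among the called genes, this separation held for 49 of those called up and 11 of those called down. The first component of log2 CPM over all libraries (27.9% of variance) placed every D26 library, at 4.61 to 25.6, above every untreated library, the highest of which was at -4.31.

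These counts were lower with Xist in the model, without the low-Xist libraries and with GC correction. They were also lower with only control set 1, at 80 up and 26 down, and without B6 replicate 2 at D26, at 68 and 24. With log2 Xist as a covariate, 18 genes were called up and 0 down, all 18 among the 136, with 3164 genes at an unadjusted p under 0.05. Without the 3 low-Xist libraries, an alternative chosen after seeing the data, 39 were called up and 0 down, of which 33 were among the 136, with 3275 genes at an unadjusted p under 0.05. That fit has 3 treated libraries in place of 6, and leaving out 3 others was not tested. In it the log2 FC of Ltf, Krt14 and C4b were 3.25, 1.86 and 0.91 against 3.33, 1.68 and 0.89, while others were nearer 0, with Dhrs9 at 1.49 against 2.13, 1600029D21Rik at 1.44 against 2.08, Prom1 at 0.38 against 0.74, Car1 at -0.45 against -0.78 and Gatm at -0.34 against -0.60. DESeq2 on all libraries called 158 up and 70 down, and limma voom 127 up and 60 down. After correction of each library for GC content, 106 genes were called up and 27 down, 88 and 19 of them shared. The share of calls that were up, 70.1%, was 79.7% with GC correction, 82.9% with a replicate block and GC correction together and 100% with Xist. Called genes were unlike all genes in base composition, with a median GC content of 54.0% for those up and 42.7% for those down against 50.6% over 12267 genes. In every fit to these genes, those with Xist included, 16 genes were called, all of them up, among them AI747448, Aldh1a3, Arl4c, Cwh43, Ier3, Krt14, Krt16, Krt5, Krt6a, Lgals9, Ltf, Serpina3n, Socs3, Tnfrsf11b and Trim40. Leaving the Xist fits aside, 53 genes were called in every other fit, 47 up and 6 down. With a fold of at least 2, 28 genes were called up and 5 down, the latter being Pcdh17, Fxyd4, Fut9, Gm8989 and Gm8979.

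**Figure D2:**
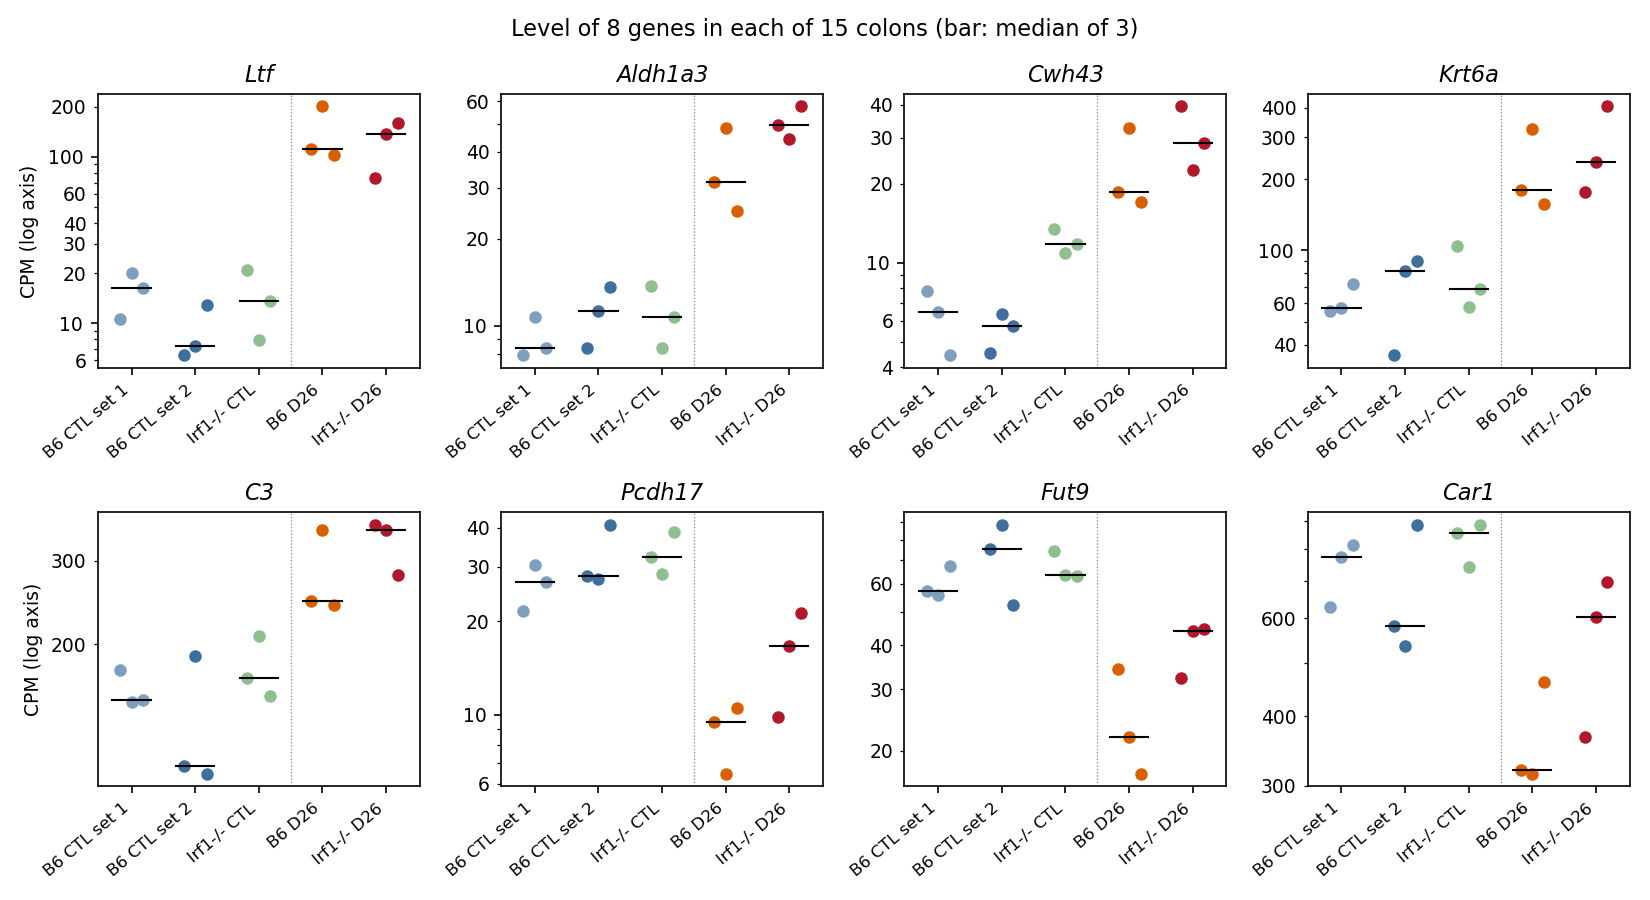
CPM of 8 genes (log axes) in each of the 15 colons (points, with the median of 3 as a bar), by group (CTL, untreated). For Ltf, Aldh1a3, Cwh43, Krt6a, C3, Pcdh17 and Fut9 the D26 colons of both genotypes lie apart from all untreated colons, while for Car1 they overlap.

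The genes described were taken by a rule: the called genes changed most among those whose D26 and untreated libraries do not overlap, the most abundant called genes, and the members of each gene list with the smallest p. For the genes of largest log2 FC, separation was thus part of the choice. Others were chosen after their values were seen, which is said where most of them appear. Members of the marker lists, such as Krt1, Krt10, Lor, Muc2 and Cxcr2, are also given outside the rule.

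Ltf encodes lactoferrin, an iron-binding antimicrobial protein of secretions and neutrophil granules, and had the largest log2 FC of the 12370 genes. It was at 12.9 CPM (6.41 to 20.9) in untreated colons and 124 CPM (74.1 to 200.5) at D26. The lowest D26 colon was above the highest untreated one by a wide margin, and at D26 the colons of the genotypes were interleaved. The log2 FC was 3.33 ± 0.26 (edgeR adjusted p = 3.28e-06), with 3.48 ± 0.34 in B6 and 3.12 ± 0.43 in Irf1-/- mice.

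Ltf belongs to a list of mucosal antimicrobial and oxidase genes, of which 21 of 39 were tested, 6 called up and 0 down, with a median log2 FC of 0.29 against -0.0018 over all genes. Duox2 makes hydrogen peroxide at the epithelial surface and Duoxa2 is needed for its maturation. Duoxa2 was at 13.6 CPM (8.72 to 32.8) untreated and 30.0 CPM (23.5 to 51.5) at D26, and the groups overlapped through 2 untreated colons. It rose with a log2 FC of 1.03 ± 0.19 (edgeR adjusted p = 0.00205). Both oxidases were also called up, as were the lysozymes Lyz1 and Lyz2, and these were chosen after their values were seen. Duox2 was at 107 CPM (71.7 to 192) untreated and 185 CPM (136 to 264) at D26 (log2 FC 0.69 ± 0.15, edgeR adjusted p = 0.00547), and the paralog Duox1 had a log2 FC of 0.60 ± 0.13 (edgeR adjusted p = 0.00473). Lyz1 and Lyz2 are near-identical, so reads may be split between them and their values, log2 FC 0.59 and 0.59, are uncertain.

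Not all members of the list rose. Wfdc2, a secreted protease inhibitor, was at 192 CPM (174 to 247) untreated and 139 CPM (102 to 164) at D26, without overlap and with a log2 FC of -0.51 ± 0.096 (edgeR adjusted p = 0.00231), under the fold limit. With GC correction it was at -0.62 (edgeR adjusted p = 0.000483) and called down, so the list then had 5 members up and 1 down, against 3 and 0 with only control set 1 and 1 and 0 with Xist in the model. The summed level of the tested members was 9386 CPM (8626 to 11671) untreated and 9997 CPM (8082 to 11841) at D26, and most of it was Lypd8 and other abundant genes that were not called. S100a8, S100a9, Lcn2 and Nos2 were among the listed genes not tested here.

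Keratins of stratified and wounded epithelium made up 4 of the 12 separated genes with the largest increase. Krt6a, a keratin made by keratinocytes at wound edges, was at 68.8 CPM (36.1 to 105) untreated and 208 CPM (157 to 405) at D26 and rose with a log2 FC of 1.78 ± 0.22 (edgeR adjusted p = 0.000223). Its partner Krt16 was at 4.44 CPM (2.38 to 6.84) and 12.8 CPM (8.52 to 20.2), a log2 FC of 1.45 ± 0.22 (edgeR adjusted p = 0.000618). Krt14, a keratin of basal cells, was at 63.8 CPM (44.6 to 93.4) and 186 CPM (134 to 353), a log2 FC of 1.68 ± 0.22 (edgeR adjusted p = 0.000279). In all 3, each D26 colon of either genotype was above every untreated colon. Krt6b and the predicted gene Gm5478 had log2 FC of 1.43 ± 0.21 and 1.59 ± 0.24 (edgeR adjusted p = 0.000618 and 0.000618), but Krt6a and Krt6b are nearly identical in sequence and their reads may be exchanged.

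Krt5, the pairing partner of Krt14 in basal cells, was chosen after its values were seen. It was at 40.5 CPM (25.6 to 55.7) untreated and 111 CPM (51.1 to 204) at D26, so the groups overlapped at the edge, and its log2 FC was 1.44 ± 0.23 (edgeR adjusted p = 0.000788). Other genes of stratified epithelium chosen in the same way were Tgm1, which cross-links the cornified envelope (4.53 to 11.4 against 12.1 to 28.4 CPM, log2 FC 1.19 ± 0.21, edgeR adjusted p = 0.00144), and Ly6d (log2 FC 0.94 ± 0.16, edgeR adjusted p = 0.00148). Of 25 keratin genes tested, a family chosen after the values were seen, 5 were called up and 0 down with a median log2 FC of 0.41.

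Members of the squamous marker list differed in sign. Of its 12 members 2 were called up, Krt5 and Krt14, while 8 were positive and 4 negative, with a median log2 FC of 0.27. Its summed CPM was 659.8, 406 and 796 in control set 1, 405, 812 and 798 in control set 2 and 850.1, 566 and 635 in untreated Irf1-/- colons. At D26 it was 627, 981 and 916 in B6 and 649.6, 1313 and 1414 in Irf1-/- colons, so that 2 D26 colons lay within the untreated range. The most abundant member, Krt1 of differentiated skin layers, had a log2 FC of -0.10 ± 0.25, Krt10 of -0.20 ± 0.22 and Lor of 0.048 ± 0.26 (edgeR adjusted p = 0.791, 0.536 and 0.914). Untreated colons alone thus spanned a wide range of squamous markers, and the part of squamous tissue in the keratin result was not tested.

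Of 34 tested genes of a list of 48 tied to epithelial repair and wounds, 6 were called up and 0 down, with a median log2 FC of 0.43, and 32 were positive. Their summed level was 2634 CPM (2325 to 2805) untreated and 3533 CPM (2894 to 3847) at D26, without overlap. Anxa1, a phospholipid-binding protein that restrains neutrophil entry, was at 196 CPM (169 to 239) and 336 CPM (231 to 432), where only the lowest D26 colon fell inside the untreated range. It rose with a log2 FC of 0.75 ± 0.11 (edgeR adjusted p = 0.000433). Plaur, the urokinase receptor on cells that migrate into wounds, was low throughout, at 4.11 CPM (3.55 to 6.80) and 9.15 CPM (5.80 to 11.5), with a log2 FC of 0.82 ± 0.11 (edgeR adjusted p = 0.000373). Krt7, a keratin of simple epithelium, did not overlap between groups (71.5 to 93.8 against 98.8 to 139 CPM) but its log2 FC of 0.49 ± 0.074 (edgeR adjusted p = 0.000618) was under the fold limit. Krt14, given above, was also in this list. Other called members included Ly6a, a surface protein of regenerating colonic epithelium, and Ly6d, with log2 FC of 0.76 and 0.94, chosen after their values were seen. With Xist in the model 1 member was called up by edgeR, while the list median was 0.32. Anxa1 and Plaur then had log2 FC of 0.55 and 0.80 and were not called (edgeR adjusted p = 0.0221 and 0.0107).

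The retinoic acid pathway included some of the largest increases. Aldh1a3, which oxidizes retinaldehyde to retinoic acid, was at 10.7 CPM (7.88 to 13.7) untreated and 46.3 CPM (25.0 to 57.5) at D26. No untreated colon reached the lowest D26 colon, and the spread among the 9 untreated colons was narrow. The log2 FC was 1.97 ± 0.16 (edgeR adjusted p = 3.28e-06), with 1.80 ± 0.20 in B6 and 2.20 ± 0.25 in Irf1-/- mice. Dhrs9, a dehydrogenase that makes retinaldehyde from retinol, was at 5.54 CPM (2.73 to 8.32) and 20.3 CPM (7.20 to 46.8), overlapping in 1 D26 colon, with a log2 FC of 2.13 ± 0.32 (edgeR adjusted p = 0.000618). With Xist in the model the log2 FC of Dhrs9 was 1.44 and its call was lost (edgeR adjusted p = 0.0318). The receptor Rarg had a log2 FC of 0.48 ± 0.084 (edgeR adjusted p = 0.00145), under the fold limit. Of the 31 listed genes of the pathway 17 were tested, and these were 3 up and 0 down with a median log2 FC of 0.059, so the increase lay in a few members.

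Of 22 tested genes of arginine and polyamine metabolism (27 listed), 2 were called up and 2 down, with a median log2 FC of 0.11. Gatm, the enzyme that starts creatine synthesis from arginine, was at 22.002 CPM (19.8 to 27.7) and 14.8 CPM (10.8 to 19.7), separated by little, and fell with a log2 FC of -0.60 ± 0.13 (edgeR adjusted p = 0.00424). Otc, which uses ornithine in the urea cycle, fell with a log2 FC of -0.66 ± 0.14 (edgeR adjusted p = 0.00379) from low levels, 9.03 CPM (6.80 to 11.6) against 5.02 CPM (3.84 to 7.30). With GC correction neither was called, Gatm at -0.45 and Otc at -0.42 (edgeR adjusted p = 0.0367 and 0.0887). Smox, spermine oxidase, had a log2 FC of 0.45 ± 0.068 (edgeR adjusted p = 0.000618) and no overlap (19.4 to 24.7 against 27.4 to 35.5 CPM). Among the called members was Ddah1, which breaks down methylated arginine (log2 FC 0.89 ± 0.19, edgeR adjusted p = 0.00426), chosen after its values were seen.

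Outside these groups, 4 more genes were among the 12 separated ones with the largest increases. 1600029D21Rik, named Plet1 in RefSeq and coding for a surface protein of epithelial progenitors, was at 6.00 CPM (2.29 to 9.39) and 20.5 CPM (11.8 to 46.1), with a log2 FC of 2.08 ± 0.30 (edgeR adjusted p = 0.000455). Its log2 FC was 1.52 with Xist in the model (edgeR adjusted p = 0.0221). Cwh43, which remodels the lipid part of glycolipid-anchored proteins, was at 6.48 CPM (4.44 to 13.5) and 25.6 CPM (17.1 to 39.4), with a log2 FC of 1.68 ± 0.17 (edgeR adjusted p = 6.1e-05). Serpina3n, an acute-phase inhibitor of serine proteases, was at 19.2 CPM (12.7 to 26.8) and 44.5 CPM (40.02 to 81.5), with a log2 FC of 1.41 ± 0.16 (edgeR adjusted p = 0.000137), and it has close relatives that may share reads. 1810065E05Rik was at 31.5 CPM (20.04 to 46.3) and 77.7 CPM (55.8 to 133), with a log2 FC of 1.37 ± 0.18 (edgeR adjusted p = 0.000367). All 4 were called in each of the 15 fits that left out a library.

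AI747448 (Clca4b in RefSeq), Socs3 and Lgals9 were chosen after their values were seen, because they were called in every fit to these genes. AI747448, a member of the Clca family of secreted proteins, was at 19.1 CPM (9.77 to 36.6) untreated and 111 CPM (34.5 to 291) at D26, overlapping at the edge (log2 FC 2.28 ± 0.25, edgeR adjusted p = 0.000111). Its relative Clca6 (Clca4a) had a log2 FC of 1.20 ± 0.24 (edgeR adjusted p = 0.003), and reads may be split between these paralogs. Socs3, the feedback inhibitor that IL-6 and IL-22 signalling induces through STAT3, was at 8.58 CPM (7.81 to 11.2) and 19.7 CPM (13.4 to 26.2) without overlap and with a log2 FC of 1.16 ± 0.13 (edgeR adjusted p = 0.000111). Lgals9, the lectin galectin-9, was also without overlap at 23.5 CPM (18.0 to 29.5) and 47.0 CPM (31.0 to 71.9), with a log2 FC of 1.12 ± 0.14 (edgeR adjusted p = 0.000223).

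Only 11 genes called down had D26 libraries wholly below the untreated ones. Pcdh17, a protocadherin for adhesion between like cells, was at 28.5 CPM (21.6 to 40.9) untreated and 10.2 CPM (6.46 to 21.3) at D26, and the highest D26 colon came close to the lowest untreated one. It fell with a log2 FC of -1.42 ± 0.19 (edgeR adjusted p = 0.000344). Fxyd4, a regulator of the sodium pump that aldosterone induces in colon, was at 41.5 CPM (35.1 to 59.8) and 17.9 CPM (11.1 to 33.8), with a log2 FC of -1.14 ± 0.17 (edgeR adjusted p = 0.000618). Fut9, a fucosyltransferase that builds Lewis x sugars, was at 63.8 CPM (52.3 to 88.6) and 33.3 CPM (17.2 to 44.5), with a log2 FC of -1.13 ± 0.17 (edgeR adjusted p = 0.000648). For Pcdh17 and Fut9 the 3 B6 values at D26 were mostly below the Irf1-/- values at D26, while for Fxyd4 the genotypes mixed. None of these kept its call with Xist in the model, where the log2 FC were -1.15, -0.81 and -0.99.

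The other 8 had smaller decreases. Itih2, the hyaluronan-binding heavy chain, was at 22.4 CPM (20.2 to 27.3) and 14.7 CPM (7.48 to 19.8), with a log2 FC of -0.75 ± 0.16 (edgeR adjusted p = 0.00389). Chpt1, which completes phosphatidylcholine, was at 117 CPM (104 to 120.0) and 74.9 CPM (66.8 to 85.8), with narrow groups and a log2 FC of -0.60 ± 0.055 (edgeR adjusted p = 1.42e-05). Dpyd, which breaks down pyrimidines, had a log2 FC of -0.60 ± 0.15 (edgeR adjusted p = 0.00988) and was called in only 1 of 15 fits that left out a library. Tcf7l1, a largely repressive partner of beta-catenin, was at 33.4 CPM (27.1 to 42.5) and 23.4 CPM (18.1 to 26.0), with a log2 FC of -0.59 ± 0.098 (edgeR adjusted p = 0.00108) and was called in 9 of these fits. Wdr89 and the zinc finger gene Zfp457 had log2 FC of -0.71 ± 0.11 and -0.63 ± 0.078 (edgeR adjusted p = 0.000719 and 0.000223). Gm14440, a gene model with near-identical copies whose count is uncertain, had a log2 FC of -0.84 ± 0.13 (edgeR adjusted p = 0.000642). Gatm, given with arginine metabolism above, was the eighth. With GC correction 5 of the 8 were no longer called, Gm14440 at -0.49, Gatm at -0.45, Chpt1 at -0.43, Zfp457 at -0.44 and Dpyd at -0.46, all under the fold limit.

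Complement genes were among the abundant genes called up. C3, the component on which all complement pathways meet, was at 155 CPM (107 to 208) untreated and 314 CPM (242 to 358) at D26, with no overlap. Its log2 FC was 0.90 ± 0.13 (edgeR adjusted p = 0.000433), with 0.92 ± 0.17 in B6 and 0.89 ± 0.20 in Irf1-/- mice. C4b, cleaved to start the classical pathway, was at 138 CPM (95.4 to 179) and 267 CPM (189.8 to 334) without overlap and with a log2 FC of 0.89 ± 0.13 (edgeR adjusted p = 0.000545). The paralog C4a was at 37.5 CPM (27.0 to 51.0) and 69.8 CPM (48.5 to 89.9), overlapping slightly, with a log2 FC of 0.78 ± 0.14 (edgeR adjusted p = 0.00144), but C4a and C4b share most of their sequence and may exchange reads. The same holds for C1ra and C1rb, proteases of the C1 complex, with log2 FC of 0.51 ± 0.068 and 0.56 ± 0.071 (edgeR adjusted p = 0.000351 and 0.000225), under the fold limit.

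Over the whole complement list, 19 of 30 genes were tested, 5 called up and 0 down, with a median log2 FC of 0.41, 0.35 in B6 and 0.53 in Irf1-/- mice. The summed level was 1180.4 CPM (1007 to 1341) untreated and 1735 CPM (1435 to 1878) at D26, again without overlap. C1qb, of the recognition unit made by macrophages, and C3ar1, a receptor for a C3 fragment, were the remaining called members, with log2 FC of 0.67 and 0.61, chosen after their values were seen. With Xist in the model 0 of the 19 were called by edgeR, while the list median was 0.37.

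Genes of MHC class II presentation had the highest list median, 0.73 over 11 tested of 15, with 3 called up and 0 down. Cd74, the invariant chain, was at 219 CPM (141 to 287) untreated and 311 CPM (254 to 716) at D26 (log2 FC 0.83 ± 0.20, edgeR adjusted p = 0.00893). H2-Aa, an MHC class II chain, was at 109.9 CPM (67.0 to 158) and 162 CPM (131 to 374), with a log2 FC of 0.84 ± 0.21 (edgeR adjusted p = 0.00999). H2-DMa, which loads peptide, had a log2 FC of 0.82 ± 0.18 (edgeR adjusted p = 0.00468), and H2-Eb1 narrowly missed the threshold at 0.73 ± 0.18 (edgeR adjusted p = 0.0102). The ranges overlapped in each, B6 replicates 2 and 3 at D26 held the highest values of all 4, and H2 genes share sequence. These calls were fragile, as Cd74 and H2-Aa were called in only 5 and 4 of 15 fits that left out a library. With GC correction, with only control set 1, with only control set 2 and with Xist in the model 0 members were called by edgeR, though the list medians were 0.64, 0.61, 0.72 and 0.58. H2-DMa then had log2 FC of 0.73, 0.71, 0.82 and 0.70 (edgeR adjusted p = 0.0111, 0.0252, 0.0122 and 0.0722). In B6 mice the list median was 0.99 and in Irf1-/- mice 0.32.

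MHC class I and immunoproteasome genes had medians of opposite sign in the genotypes, a log2 FC of 0.42 in B6 and -0.076 in Irf1-/- mice, a difference that was not tested for the list. Over both, 1 of 24 tested genes (30 listed) was called up, 0 down (4.17%, against 1.57% of all genes), and the median was 0.24. The called gene was Psmb8, a proteasome subunit that interferon induces, at 26.6 CPM (7.502 to 36.7) and 27.1 CPM (9.06 to 89.0) over both genotypes. Its log2 FC was 0.85 ± 0.17 (edgeR adjusted p = 0.00354). These pooled ranges overlapped widely, but within B6 they were apart, at 26.1 to 36.7 CPM untreated and 41.7 to 89.0 CPM at D26. Within Irf1-/- mice Psmb8 was at 7.502 to 10.6 and 9.06 to 12.4 CPM, with overlap. With only control set 1, with only control set 2 and with Xist in the model its log2 FC was 0.74, 0.82 and 0.76 and it was not called (edgeR adjusted p = 0.0264, 0.016 and 0.0538). It stood at 1.17 in B6 and 0.28 in Irf1-/- mice, with an edgeR adjusted p = 0.192 for that difference. Tapbp, Tap1 and Psme1, for peptide loading, transport and cleavage, had log2 FC of 0.29 ± 0.065, 0.73 ± 0.20 and 0.27 ± 0.076 (edgeR adjusted p = 0.00582, 0.0175 and 0.0192). Over both genotypes their groups overlapped. Within B6, Tapbp (209 to 239 against 253 to 315 CPM) and Psme1 (67.5 to 84.7 against 89.2 to 109.6 CPM) were apart, while Tap1 overlapped. Within Irf1-/- mice all 3 overlapped. For Tapbp, all 6 Irf1-/- colons, treated or not, lay below all 9 B6 colons.

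Of 42 tested interferon-inducible genes (66 listed), 5 were called up and 0 down, with a median log2 FC of 0.36. These counts up depended on the setting, with 0 by edgeR with only control set 1 or with Xist in the model and 2 with only control set 2. Oasl2, a relative of the antiviral oligoadenylate synthetases, was at 10.2 CPM (2.40 to 13.3) and 11.3 CPM (4.15 to 37.1), with a log2 FC of 1.14 ± 0.22 (edgeR adjusted p = 0.00262). Tgtp2, an interferon-induced GTPase with a near-identical copy, was at 9.23 CPM (1.78 to 16.1) and 12.2 CPM (5.53 to 39.9), with a log2 FC of 1.27 ± 0.25 (edgeR adjusted p = 0.00264). Oasl1 rose with a log2 FC of 0.76 ± 0.16 (edgeR adjusted p = 0.00449), and Lgals3bp had 0.52 ± 0.11 (edgeR adjusted p = 0.00429), under the fold limit. For all 4 the D26 and untreated ranges overlapped, while among D26 colons each B6 value exceeded each Irf1-/- value. Tgtp2 had a log2 FC of 1.15 in B6 and 1.48 in Irf1-/- mice, whereas Oasl1 had 1.10 and 0.27. With only control set 1, which leaves fewer libraries, Oasl2, Tgtp2 and Oasl1 had log2 FC of 1.03, 1.31 and 0.65 (edgeR adjusted p = 0.0212, 0.0104 and 0.0308). The other called members were Irf7 and Gbp2, chosen after their values were seen, with log2 FC of 0.81 and 0.87, and Gbp2 has near-identical relatives.

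Cytokines, chemokines and their receptors held 9 genes called up and 0 down of 45 tested (85 listed), with a median log2 FC of 0.23. With only control set 1, 2 were called up, and with Xist in the model 1. Tnfrsf11b, the soluble decoy receptor osteoprotegerin, was at 5.11 CPM (4.72 to 5.60) untreated and 11.5 CPM (7.74 to 15.3) at D26. The untreated values lay within a narrow band below all treated ones, close to the 5 CPM of the table filter, and the log2 FC was 1.16 ± 0.14 (edgeR adjusted p = 0.000165). Tnfrsf1b, a receptor for TNF, was at 34.1 CPM (31.7 to 36.9) and 48.3 CPM (43.4 to 61.3) without overlap and with a log2 FC of 0.59 ± 0.077 (edgeR adjusted p = 0.000295). Il4ra, which receives IL-4 and IL-13, was at 46.7 CPM (41.8 to 61.0) and 70.3 CPM (62.4 to 93.7) without overlap and with a log2 FC of 0.61 ± 0.086 (edgeR adjusted p = 0.000433). Csf1r, the growth factor receptor of macrophages, had a log2 FC of 0.52 ± 0.073 (edgeR adjusted p = 0.000455), under the fold limit. In Irf1-/- mice the log2 FC of these were 1.40, 0.61, 0.60 and 0.56, and in B6 mice 0.99, 0.57, 0.63 and 0.48.

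The remaining called members of that list were ligands and receptors chosen after their values were seen. Among ligands, Cxcl5, which attracts neutrophils, was at 7.06 CPM (5.29 to 10.8) and 18.4 CPM (8.31 to 24.3), with a log2 FC of 1.13 ± 0.20 (edgeR adjusted p = 0.00154), and Cxcl14, Cxcl16 and Tgfb1 had log2 FC of 0.69, 0.62 and 0.63. Among receptors, Il1rl1 for IL-33 and Csf2rb for GM-CSF had 0.68 and 0.73. Cxcr2, the neutrophil receptor for Cxcl5, had a log2 FC of -0.37 ± 0.068 (edgeR adjusted p = 0.00196), not called. Other neutrophil markers such as S100a8, S100a9, Ly6g and Mpo were among 12 of 14 not tested, so neutrophils could not be followed.

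Macrophage markers moved with these genes. Of 22 markers 17 were tested, 3 called up (C1qb, Tyrobp and Lyz2) and 0 down, with a median log2 FC of 0.54, and 16 were positive. Their summed CPM was 745, 774 and 606 in control set 1, 605, 653 and 598 in control set 2 and 523, 631 and 603 in untreated Irf1-/- colons. At D26 it was 809, 1044 and 873 in B6 and 791, 803 and 883 in Irf1-/- colons, all above the untreated ones. Lyz2 was the most abundant member, at a mean of 198 CPM, and Adgre1, Fcgr1, Fcer1g, Aif1 and Clec4n were not tested under these symbols. The part of macrophage RNA in the complement, MHC class II and cytokine results was not tested.

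Some genes of myeloid cells and lysosomes outside the lists were chosen after their values were seen, because they were called up, and say nothing of such genes as a group. Gpnmb, a glycoprotein of lipid-laden macrophages, was at 12.8 CPM (6.68 to 17.3) and 30.3 CPM (20.5 to 51.3) without overlap and with a log2 FC of 1.27 ± 0.19 (edgeR adjusted p = 0.000673). Mpeg1, a pore-forming protein of phagocytes, was at 41.0 CPM (27.9 to 55.0) and 78.0 CPM (61.5 to 94.8) without overlap and with a log2 FC of 0.91 ± 0.12 (edgeR adjusted p = 0.00032). Inhibitory receptors were among the called genes, with log2 FC of 0.81 for Fcgr2b, 0.80 for Lilrb3 (Pirb in RefSeq), 0.82 for Lilrb4 and 0.73 for Lair1. Icam1, to which leukocytes bind on endothelium, was at 12.7 CPM (9.82 to 15.1) and 21.9 CPM (14.7 to 27.8), nearly without overlap and with a log2 FC of 0.79 ± 0.12 (edgeR adjusted p = 0.000741).

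Other leukocyte lists moved less or could not be judged. Of 15 pan-leukocyte markers 14 were tested and 2 called up, Laptm5 and Itgb2, with a median log2 FC of 0.44 and sums of 329.8 CPM (214 to 456) and 436 CPM (324 to 489), which overlap. For T and NK cells 2 of 28 markers were tested, Cd4 called up at 0.77 and Cd8b1 at -0.29, and Cd3d, Cd3e, Cd3g and the others were not tested. For B and plasma cells 13 of 19 were tested and 1, Prdm1, was called up, with a median of 0.13. The eosinophil, dendritic cell, adipocyte and pancreas lists had 1 of 10, 3 of 10, 3 of 9 and 1 of 7 genes tested, and 0 called by edgeR. The only mast cell marker tested of 12, Kit, which interstitial cells of Cajal also express, was at 72.9 CPM (66.7 to 79.2) and 89.6 CPM (81.2 to 91.4), without overlap but with a log2 FC of 0.28 ± 0.046 (edgeR adjusted p = 0.00104).

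Of 12 endothelial markers 11 were tested, 0 called by edgeR, with a median log2 FC of 0.27. Their summed CPM was 276 CPM (256 to 291) untreated and 326 CPM (312 to 364) at D26, so all treated colons were above all untreated ones. Vwf, a clotting factor stored in endothelial cells, had a log2 FC of 0.40 ± 0.057 (edgeR adjusted p = 0.000455), under the fold limit. Lists for fibroblasts (10 of 10 tested), enteric neurons (10 of 14), enteric glia (2 of 7), interstitial cells of Cajal (4 of 4), enteroendocrine cells (7 of 10) and tuft cells (4 of 7) had 0 calls, with medians of 0.13, 0.035, -0.021, -0.036, 0.023 and 0.22.

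**Figure D3:**
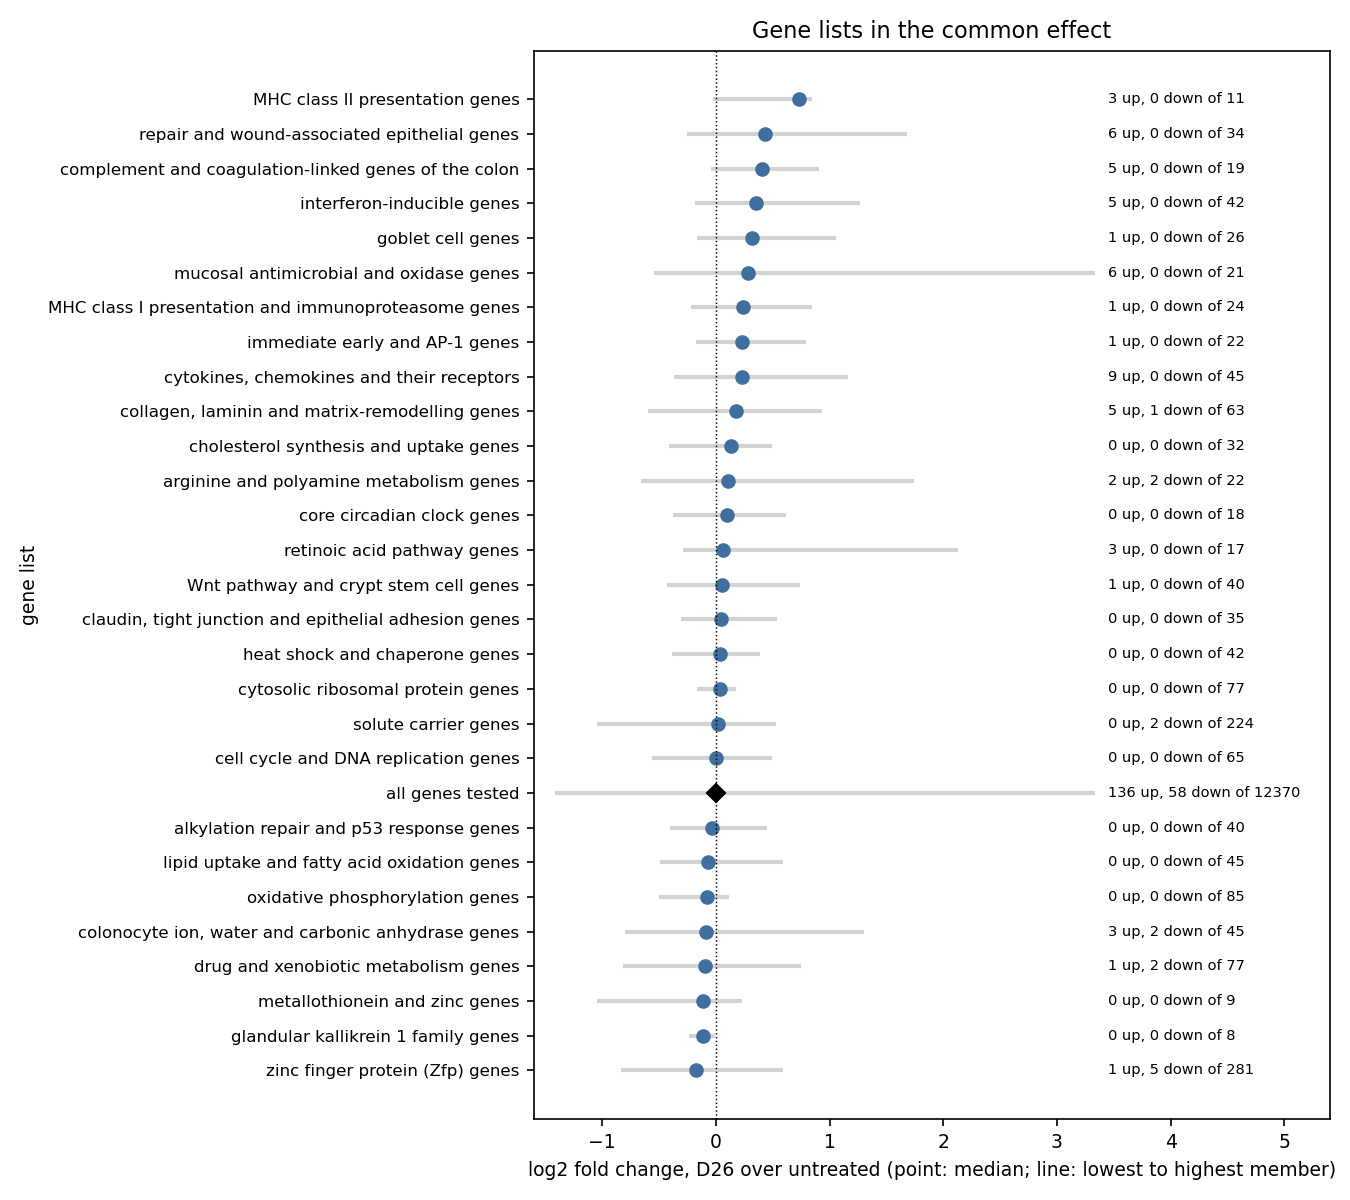
Median log2 FC (points) and the range from the lowest to the highest member (lines) of 28 gene lists and of all genes tested (diamond), with the number of members called up and down of those tested. MHC class II genes have the highest median (0.73) and zinc finger protein genes the lowest (-0.17).

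Genes of the matrix included 5 called up and 1 down of 63 tested (73 listed), with a median log2 FC of 0.17. The counts were 3 up and 0 down with GC correction, 4 and 0 with only control set 1, 1 and 0 with only control set 2 and 0 and 0 with Xist in the model. Lama1, a laminin chain of basement membranes, was at 6.54 CPM (5.69 to 7.57) and 11.03 CPM (8.74 to 22.05) without overlap and with a log2 FC of 0.93 ± 0.17 (edgeR adjusted p = 0.00196). Mmp2 and its activator Mmp14, with the inhibitor Timp2, had log2 FC of 0.43 ± 0.065, 0.40 ± 0.064 and 0.28 ± 0.053 (edgeR adjusted p = 0.000648, 0.000799 and 0.00209). In all 3, no D26 colon was as low as any untreated colon (for Mmp2, 109 to 145 against 79.5 to 95.1 CPM), yet none reached the fold limit. The other calls, chosen after their values were seen, were Col6a4 (0.72), Col7a1 (0.66), Col18a1 (0.66) and Lox (0.79), which cross-links collagen, all up, and the proteoglycan Ogn (-0.60), down. Of the insulin-like growth factor binding proteins, a family chosen after the values were seen, 6 were tested and 3 called up: Igfbp3 (40.5 to 65.7 against 75.0 to 94.1 CPM, log2 FC 0.67 ± 0.10, edgeR adjusted p = 0.000742), Igfbp4 (0.64) and Igfbp5 (0.64).

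Genes of ion and water transport in colonocytes moved both ways, 3 up and 2 down of 45 tested (50 listed), with a median log2 FC of -0.091. Aqp3, a channel for water and glycerol, was at 4.72 CPM (3.61 to 8.04) and 13.2 CPM (10.2 to 17.1) without overlap and rose, with a log2 FC of 1.30 ± 0.18 (edgeR adjusted p = 0.000433). Car12, a membrane carbonic anhydrase, was at 16.3 CPM (9.43 to 18.4) and 27.9 CPM (23.1 to 34.5) without overlap and rose as well, with a log2 FC of 0.93 ± 0.15 (edgeR adjusted p = 0.000719). Car1, the abundant cytosolic carbonic anhydrase of surface colonocytes, fell from 776 CPM (535 to 885) to 414 CPM (316 to 697), with overlap between the groups (log2 FC -0.78 ± 0.15, edgeR adjusted p = 0.00275). Cftr, the chloride channel of crypts, was at 204 CPM (176 to 249.5) and 136 CPM (105 to 207) and fell, with a log2 FC of -0.62 ± 0.10 (edgeR adjusted p = 0.00112), though with GC correction its log2 FC was -0.40 (edgeR adjusted p = 0.0108) and the call was lost. Clca6, given above, was the other gene called up. Among 12 colonocyte markers, Cdx2 was called up and Car1 down, and the median was 0.021.

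Over 26 tested goblet cell genes of 33 the median log2 FC was 0.32, with 24 positive, 1 called up and 0 down (3.85%, against 1.57% of all genes). Spdef, a transcription factor of goblet cell maturation, was at 32.3 CPM (25.0 to 43.6) and 49.8 CPM (36.2 to 71.3), with a log2 FC of 0.60 ± 0.15 (edgeR adjusted p = 0.00859) and was called in 5 of 15 fits that left out a library. With GC correction, only control set 1, only control set 2 and Xist in the model it had log2 FC of 0.48, 0.67, 0.49 and 0.46 and was not called (edgeR adjusted p = 0.0395, 0.0175, 0.0331 and 0.129), which left the list with 0 calls. Foxa3, Creb3l4 and Creb3l1, which act in goblet cell differentiation or secretion, had log2 FC of 0.36 ± 0.077, 0.45 ± 0.10 and 0.37 ± 0.085 (edgeR adjusted p = 0.00429, 0.006 and 0.00642), none past the fold limit. The D26 and untreated ranges overlapped in each of the 4. The goblet marker sum, mostly Fcgbp, was 13272 CPM (6473 to 16202) untreated and 19569 CPM (14405 to 23632) at D26. Muc2, the mucin of the colonic mucus layer, was at 2472 CPM (989 to 3809.9) and 4484 CPM (2668 to 6999.8), a log2 FC of 0.86 that was not called (edgeR adjusted p = 0.0131). It was 1.30 in B6 and 0.25 in Irf1-/- mice, with an edgeR adjusted p = 0.234 for the difference.

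Drug and xenobiotic metabolism genes had 1 call up and 2 down (0 down by edgeR with GC correction) among 77 tested of 97, with a median log2 FC of -0.092. The called share was 3.9%, against 1.57% of all genes. Gsta4, which conjugates lipid peroxidation products, was at 23.96 CPM (17.1 to 30.8) and 38.6 CPM (35.8 to 46.6) without overlap and rose, with a log2 FC of 0.75 ± 0.11 (edgeR adjusted p = 0.000544). Akr1c14, Ugt2b34 and Mgst1, a hydroxysteroid reductase, a glucuronosyltransferase and a microsomal glutathione transferase, had log2 FC of -0.51 ± 0.071, -0.42 ± 0.059 and -0.53 ± 0.087 (edgeR adjusted p = 0.000433, 0.000433 and 0.00108). All D26 colons were below all untreated colons in these 3, with folds under the limit, and with GC correction Ugt2b34 stood at -0.17. Of 6 tested Cyp2c genes, a family chosen after the values were seen, 4 were called down, Cyp2c40, Cyp2c67, Cyp2c68 and Cyp2c69, with log2 FC of -0.68, -0.74, -0.82 and -0.70. With GC correction these were -0.53, -0.57, -0.64 and -0.53 and not called (edgeR adjusted p = 0.0248, 0.0123, 0.0121 and 0.0432). Cyp2c68 was the most abundant of these, at 163 CPM (116 to 241) untreated and 96.8 CPM (68.1 to 138) at D26, and the members are so alike that reads may be shared. Cyp2c55 and Cyp2c65, the other tested members, had log2 FC of 0.019 and 0.15.

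Lists of mitochondrial energy metabolism held no called gene. Of 85 oxidative phosphorylation genes, all tested, 68 had a negative log2 FC, with a median of -0.077 and 0 called by edgeR. The median was -0.0060 in B6 and -0.17 in Irf1-/- mice. Ndufa1 and Ndufc2 of complex I had log2 FC of -0.37 ± 0.053 and -0.25 ± 0.043, and Cox7a1 and Cox7b of complex IV -0.50 ± 0.094 and -0.20 ± 0.042 (edgeR adjusted p = 0.000478, 0.00119, 0.00237 and 0.00407). For Ndufa1 the D26 colons lay at 50.5 CPM (48.5 to 54.1), below all untreated ones at 64.9 CPM (57.1 to 74.3), and Cox7b with GC correction had a log2 FC of 0.0018. Lipid uptake and fatty acid oxidation genes had a median of -0.067 over 45 tested of 59, with 0 called by edgeR. Acsm3, Oxct1, Cd36 and Ppargc1a, for acyl-CoA synthesis, ketone use, fatty acid uptake and control of mitochondrial genes, had log2 FC of -0.43 ± 0.073, -0.26 ± 0.051, -0.48 ± 0.096 and -0.49 ± 0.11 (edgeR adjusted p = 0.00117, 0.00286, 0.00317 and 0.00532). With GC correction these 4 genes had log2 FC of -0.26, -0.17, -0.22 and -0.43 (edgeR adjusted p = 0.0586, 0.024, 0.205 and 0.014). Of the mitochondrially encoded genes none was in the tables used here.

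Of all genes 1.57% were called, against 0% of the cell cycle list and 2.5% of the Wnt and crypt stem cell list. Over 65 tested cell cycle genes of 72, 0 were called by edgeR and the median log2 FC was -0.0011, which was 0.13 with only control set 1 and -0.098 with only control set 2, so no direction can be given. E2f1, Cdk2, Plk1 and Cenpf, for entry to S phase and for mitosis, had log2 FC of -0.56 ± 0.15, 0.29 ± 0.086, 0.19 ± 0.060 and -0.38 ± 0.12 (edgeR adjusted p = 0.0159, 0.0234, 0.0295 and 0.0334). With only control set 2, E2f1 was called down at -0.73 (edgeR adjusted p = 0.000733), and it was called in 2 of 15 fits that left out a library. In the Wnt and crypt stem cell list 1 of 40 tested genes (59 listed) was called up and 0 down, with a median of 0.057. The called gene, Prom1, a surface protein of stem and progenitor cells, was at 156 CPM (101 to 211) and 271 CPM (177 to 474), with a log2 FC of 0.74 ± 0.15 (edgeR adjusted p = 0.00354), and with Xist in the model it stood at 0.33. Lgr5, the marker of crypt stem cells, was at 36.2 CPM (32.9 to 44.2) untreated and 27.4 CPM (25.6 to 30.2) at D26, wholly below, with a log2 FC of -0.43 ± 0.066 (edgeR adjusted p = 0.000673) under the fold limit. Its relative Lgr4 had -0.26 ± 0.056 and the Wnt antagonist Sfrp1 0.41 ± 0.076 (edgeR adjusted p = 0.00424 and 0.00226).

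Usf1 and Dact2 were measured in the study by quantitative PCR, and reported as raised at D26 in B6 but not in Irf1-/- colons. Neither was called in the common effect, which does not test a response of B6 alone. Usf1, a transcription factor that binds E-box sequences, was at 40.8 CPM (35.4 to 44.5) and 41.8 CPM (30.1 to 52.1), and Dact2, an inhibitor of Wnt and TGF-beta signalling, at 18.7 CPM (15.9 to 22.2) and 21.1 CPM (14.8 to 28.6), both with overlap. Their log2 FC were 0.12 ± 0.067 and 0.22 ± 0.10 (edgeR adjusted p = 0.209 and 0.112). In B6 mice they were 0.27 and 0.45, and in Irf1-/- mice -0.10 and -0.091, with an edgeR adjusted p = 0.117 and 0.155 for the difference.

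Because AOM alkylates DNA, a list of alkylation repair and p53 response genes was included, with 40 tested of 44. At D26, 0 were called by edgeR and the median log2 FC was -0.038. Trp53, which encodes p53, its target Trp53inp1, the death receptor Tnfrsf10b and the kinase Atm had log2 FC of 0.28 ± 0.067, -0.40 ± 0.092, -0.27 ± 0.066 and -0.28 ± 0.079 (edgeR adjusted p = 0.00759, 0.00659, 0.00931 and 0.0205). In the immediate early list 1 of 22 tested genes (30 listed) was called up, 0 down (4.55%, against 1.57% of all genes), with a median of 0.23. This was Ier3, which protects cells from TNF-induced death, at 6.66 CPM (5.20 to 7.29) and 10.7 CPM (10.2 to 12.1) without overlap and with a log2 FC of 0.79 ± 0.087 (edgeR adjusted p = 0.000111). Jun, Junb and Zfp36, quickly induced regulators of transcription and mRNA decay, had log2 FC of 0.39 ± 0.076, 0.41 ± 0.088 and 0.54 ± 0.11 (edgeR adjusted p = 0.00258, 0.00473 and 0.00273).

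Several lists gave 0 calls by edgeR. For 35 tested tight junction and adhesion genes (37 listed) the median was 0.045, with Cldn15, Ceacam1 and Krt20 at log2 FC of 0.53 ± 0.098, 0.53 ± 0.099 and 0.53 ± 0.11 and Cldn12 at -0.26 ± 0.059 (edgeR adjusted p = 0.00189, 0.00222, 0.00407 and 0.00523). For 32 cholesterol genes (35 listed) it was 0.14, with the exporter Abca1 at 0.49 ± 0.11, Npc1 at 0.27 ± 0.064, Fdft1 at 0.39 ± 0.10 and the sterol receptor Nr1h3 at -0.41 ± 0.10 (edgeR adjusted p = 0.00498, 0.00828, 0.0141 and 0.0102). For 42 chaperone genes (43 listed) it was 0.038, changing sign to -0.043 with only control set 2, with Hspa2, Hsp90ab1, Xbp1 and Hyou1 at 0.36 ± 0.093, 0.20 ± 0.056, 0.23 ± 0.069 and 0.34 ± 0.11 (edgeR adjusted p = 0.0124, 0.0201, 0.0256 and 0.0355). None of these 12 genes reached the fold limit. Ceacam1, a bacterial receptor on the apical surface, was the most abundant of them, at 1216 CPM (979.8 to 1536) and 1725 CPM (1506 to 2205).

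Clock genes (18 tested of 21) had a median log2 FC of 0.098 and 0 calls by edgeR. Clock had a log2 FC of -0.38 ± 0.075 and the kinase Csnk1e 0.31 ± 0.062 (edgeR adjusted p = 0.00301 and 0.00317), while Cry1 at 0.62 ± 0.21 and Csnk1d at 0.12 ± 0.046 were further from the threshold (edgeR adjusted p = 0.0441 and 0.0707). The hour at which colons were taken is not given in the sources used here. Zinc and metallothionein genes (9 of 12) had a median of -0.11, with the transporters Slc39a5, Slc30a10, Slc39a4 and Slc30a5 at -0.33 ± 0.069, -1.05 ± 0.34, 0.23 ± 0.11 and -0.12 ± 0.060 (edgeR adjusted p = 0.00406, 0.0343, 0.124 and 0.16). Slc30a10 varied most, from 0.970 to 34.7 CPM among D26 colons. Glandular kallikreins (8 of 14), near-identical paralogs whose reads may be shared, had a median of -0.11, which was 0.0025 with only control set 1 and -0.26 with only control set 2. Klk1b4, Klk1b5, Klk1b3 and Klk1b11 had log2 FC of -0.24 ± 0.14, -0.16 ± 0.12, -0.14 ± 0.11 and -0.16 ± 0.18 (edgeR adjusted p = 0.225, 0.36, 0.377 and 0.546).

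Large gene families shifted little. The 77 cytosolic ribosomal protein genes had a median log2 FC of 0.036 with 0 called by edgeR, and Rpl10, Rpl7l1, Rpl29 and Rpl27 had 0.17 ± 0.056, -0.12 ± 0.043, 0.15 ± 0.058 and 0.14 ± 0.057 (edgeR adjusted p = 0.0338, 0.0552, 0.0654 and 0.0774). Among 224 solute carrier genes 0 were called up and 2 down (0.893%, against 1.57% of all genes), Slc5a3 and Slc16a12, with a median of 0.017. Its members of smallest p were the mitochondrial carriers Slc25a36 and Slc25a24, the taurine transporter Slc6a6 and the Golgi carrier Slc35a3, at -0.47 ± 0.067, -0.37 ± 0.057, 0.35 ± 0.053 and -0.43 ± 0.067 (edgeR adjusted p = 0.000433, 0.000719, 0.000673 and 0.000741), all under the fold limit.

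Zinc finger protein (Zfp) genes, many of them repressors of mobile DNA with low GC content, had 1 call up and 5 down among 281 tested, with 214 negative and a median log2 FC of -0.17. The called share was 2.14%, near the 1.57% of all genes. In B6 the median was -0.24 and in Irf1-/- mice -0.029. With GC correction it was -0.095 and 0 members were called by edgeR. Over the 1227 genes lowest in GC content the median was -0.22, with -0.33 in B6 and -0.037 in Irf1-/- mice, and it was -0.0062 with GC correction. Zfp11, Zfp300 and Zfp217 had log2 FC of -0.46 ± 0.085, -0.40 ± 0.077 and 0.32 ± 0.061 (edgeR adjusted p = 0.00196, 0.00264 and 0.00262). The called members other than Zfp457 were Zfp518a, Zfp677, Zfp758 and Zfp947, down, and Zfp703, up, chosen after their values were seen. Gene models named Gm, a family also chosen so, numbered 191 with 2 called up and 10 down and a median of -0.22, which was -0.13 with GC correction. How much of the negative medians of these genes goes with the GC slopes of the B6 libraries at D26 cannot be told apart from treatment.

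The 5 most abundant called genes in each direction add genes of other kinds. Apoe, the lipid carrier made by macrophages, was at 241 CPM (224 to 427) and 401 CPM (341 to 462), overlapping through 1 high untreated colon, with a log2 FC of 0.63 ± 0.12 (edgeR adjusted p = 0.0025). Cd177, a surface protein known from neutrophils, was at 128 CPM (74.8 to 405) and 249.8 CPM (193 to 530.0) with wide overlap and a log2 FC of 0.75 ± 0.18 (edgeR adjusted p = 0.00943) and was called in 2 of 15 fits that left out a library. Cd74, Anxa1 and C3 completed the 5 most abundant genes called up. Among those called down, beside Car1 and Gm14440, Gm8989 was at 499 CPM (372 to 717) and 236 CPM (165 to 388), with a log2 FC of -1.03 ± 0.18 (edgeR adjusted p = 0.00144), a gene model with the near-identical copy Gm8979. Sycn, a protein of secretory granules, was at 421 CPM (305 to 545) and 236 CPM (142 to 389.5), with a log2 FC of -0.65 ± 0.16 (edgeR adjusted p = 0.00947) and was called in 3 of those fits. Slc5a3, which takes up myo-inositol, was at 326 CPM (234 to 411) and 182 CPM (171 to 268), with a log2 FC of -0.68 ± 0.14 (edgeR adjusted p = 0.00317).

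A common effect can be the mean of unlike responses, so the response in each genotype was also taken from a fit of all 15 libraries with the interaction. These responses share libraries with the common effect, and the B6 response rests on 6 untreated colons against 3 for Irf1-/-. In B6 mice 146 genes were called up and 209 down (2.87% of 12370), and in Irf1-/- mice 3 up and 0 down (0.0243%), with 1804 genes at an unadjusted p under 0.05 in Irf1-/- mice, where DESeq2 called 67 up and 19 down. At the same thresholds the study, in its own comparison of treated and untreated Irf1-/- colons, reported far more genes than the 3 called here. The count thus depends on how the test was made, and few calls do not show a weak response. With GC correction the B6 counts were 58 up and 23 down. With a D26 library of B6 left out they were 230 up and 198 down without replicate 1, 60 and 269 without replicate 2 and 65 and 84 without replicate 3, and with only control set 1 they were 89 and 154. In Irf1-/- mice 0 to 6 were called up and 0 down with a library left out, 0 without untreated replicate 2 or 3. The 3 genes in Irf1-/- mice were Aldh1a3, Ltf and Runx1. Runx1, a transcription factor of blood and epithelial stem cells chosen after its values were seen, had a log2 FC of 0.63 ± 0.087 in Irf1-/- mice (edgeR adjusted p = 0.00876) and 0.57 ± 0.058 over both genotypes (edgeR adjusted p = 5.09e-05), there just under the fold limit.

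The difference between the responses was tested directly by the interaction of genotype and treatment. By edgeR 0 genes were called, with 1870 at an unadjusted p under 0.05, while DESeq2 called 33 where the Irf1-/- response was higher and 5 where it was lower. The smallest edgeR adjusted p was 0.0598. With GC correction 0 genes were called by edgeR, 843 were at an unadjusted p under 0.05 and the smallest edgeR adjusted p was 0.429. Without B6 replicate 2 at D26, 13 genes were called, all higher in Irf1-/- mice. For the genes with the widest gaps among the separated ones, the log2 FC in B6 and in Irf1-/- mice were 2.40 and 1.68 for 1600029D21Rik, -1.44 and -0.74 for Fut9, -1.72 and -1.06 for Pcdh17 and -1.17 and -0.41 for Gm14440. Gm14440 came closest to a difference (edgeR adjusted p = 0.0809), and for the others the edgeR adjusted p = 0.623, 0.277 and 0.377. A p that misses the threshold does not show that the genotypes respond alike.

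**Figure D4:**
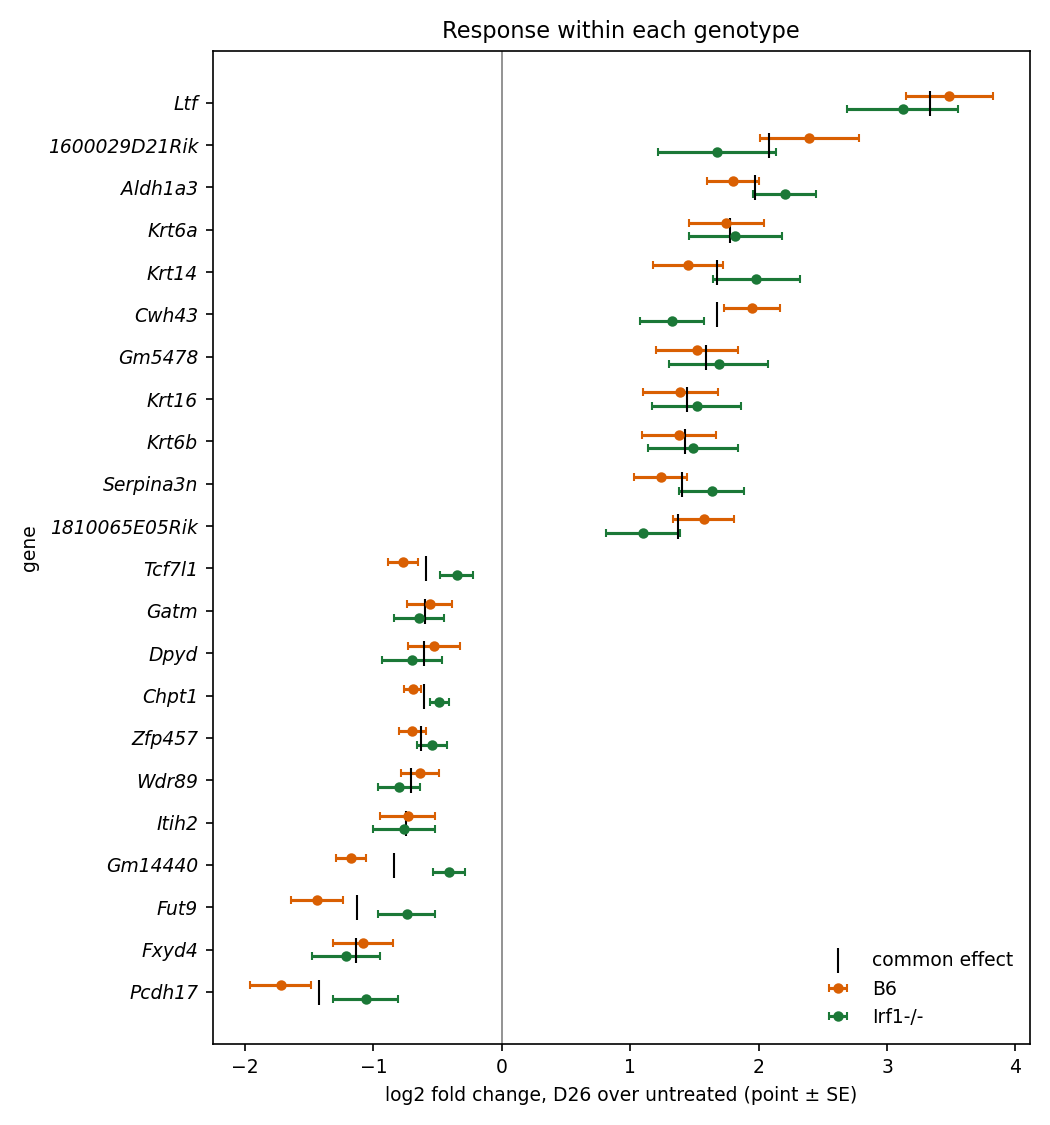
Log2 FC, D26 over untreated, with standard errors for separated genes of large change in B6 (orange) and Irf1-/- mice (green), with the common effect as a black bar. All genes drawn have the same sign in both genotypes, and Gm14440, 1600029D21Rik, Fut9 and Pcdh17 show the widest gaps.

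Promoter windows of 250 bases before and 50 after the start of transcription were taken from RefSeq (GRCm38.p6) for 140 of the 194 called genes and searched on both strands for motifs of factors that act in inflamed epithelium. AP-1 (TGANTCA) was found in 17.5% of windows of genes called up, 6.25% of those called down, 5.47% of those tested and 7.81% of all windows. For STAT (TTCNNNGAA) the shares were 12.3%, 6.25%, 6.78% and 8.3%, and for the interferon-stimulated response element (TTTCNNTTT) 14.9%, 6.25%, 7.96% and 10.6%. C/EBP (TTGCNNAA) gave 14%, 18.8%, 8.61% and 10.8%, and NF-kB (GGGNNTTCC) 7.89%, 6.25%, 7.21% and 5.82%. These are descriptions of letters, and a match shows neither binding nor control. Windows are given for some genes with large increases that hold a match, with matches in capitals, while those of AI747448, Krt14, Cwh43, Krt5, Serpina3n and Aqp3 held none. Ltf (chr9:111019042-111019341, plus strand) holds 1 C/EBP match, Plet1, listed as 1600029D21Rik (chr9:50494275-50494574, plus), 1 C/EBP and then 1 AP-1 match, Dhrs9 (chr2:69380212-69380511, plus) and Duoxa2 (chr2:122298650-122298949, plus) 1 AP-1 match each, and Tgtp2 (chr11:49064163-49064462, minus) 2 of the interferon-stimulated response element around 1 STAT match.
Ltf: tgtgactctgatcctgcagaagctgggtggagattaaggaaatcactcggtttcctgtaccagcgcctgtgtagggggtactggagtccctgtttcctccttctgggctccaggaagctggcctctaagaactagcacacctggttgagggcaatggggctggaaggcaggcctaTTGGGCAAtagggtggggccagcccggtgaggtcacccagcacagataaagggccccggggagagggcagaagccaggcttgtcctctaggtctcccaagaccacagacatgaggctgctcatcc
Plet1: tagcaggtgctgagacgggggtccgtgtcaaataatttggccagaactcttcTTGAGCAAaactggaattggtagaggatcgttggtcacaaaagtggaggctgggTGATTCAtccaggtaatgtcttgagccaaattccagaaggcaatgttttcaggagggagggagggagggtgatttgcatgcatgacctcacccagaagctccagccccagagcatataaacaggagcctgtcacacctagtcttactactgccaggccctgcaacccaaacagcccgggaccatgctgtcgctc
Dhrs9: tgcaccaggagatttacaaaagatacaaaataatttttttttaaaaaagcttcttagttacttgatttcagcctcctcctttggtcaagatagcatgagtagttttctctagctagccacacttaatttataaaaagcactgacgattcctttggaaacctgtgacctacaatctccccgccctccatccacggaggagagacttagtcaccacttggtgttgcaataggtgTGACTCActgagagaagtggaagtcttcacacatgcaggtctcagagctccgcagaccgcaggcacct
Duoxa2: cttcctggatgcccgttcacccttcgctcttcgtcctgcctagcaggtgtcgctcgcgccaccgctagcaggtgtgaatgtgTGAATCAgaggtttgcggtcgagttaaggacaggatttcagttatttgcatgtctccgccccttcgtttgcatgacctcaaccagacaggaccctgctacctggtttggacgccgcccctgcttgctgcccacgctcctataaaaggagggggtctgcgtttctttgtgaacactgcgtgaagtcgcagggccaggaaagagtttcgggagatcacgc
Tgtp2: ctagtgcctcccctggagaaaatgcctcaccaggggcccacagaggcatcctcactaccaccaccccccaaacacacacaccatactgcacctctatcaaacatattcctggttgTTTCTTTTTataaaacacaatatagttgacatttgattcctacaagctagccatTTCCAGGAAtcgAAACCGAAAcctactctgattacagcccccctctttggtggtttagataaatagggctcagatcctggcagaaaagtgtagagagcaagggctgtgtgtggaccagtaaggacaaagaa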

How the data were processed

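The authors' processing notes name TopHat2 2.0.9 with Bowtie 1.0.0, featureCounts and edgeR on the mouse build mm9. The authors aligned reads, summed them to raw counts per gene and deposited those counts in 3 tables, each filtered to genes with at least 5 CPM in at least 3 of its libraries. These counts were tested. The tables also hold 36 CPM columns and the fold changes and p-values of the authors, none of which were used. The tables have 12643, 12588 and 12692 genes. For the 3 untreated Irf1-/- libraries, which stand in 2 tables, the counts were the same in both and entered a single time.

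Counts of the 12370 shared genes were scaled by TMM and fitted in edgeR 4.0.16 (R 4.3.3) by quasi-likelihood with genotype and treatment, and called at a fold of at least 1.5 and an adjusted p under 0.01. A second fit with the interaction gave the response in each genotype. CPM values are counts over each library's total of the 12370 shared genes after TMM scaling, and log2 FC values come from the fits. DESeq2 1.42.0 and limma 3.58.1 served as other tests, GENCODE M21 transcripts gave GC content for 12267 genes (99.17%), and text, figures and counts were made with Python 3.11.15, pandas 2.3.3 and matplotlib 3.10.9.

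The genes named by rule are Irf1, the 12 called genes of largest log2 FC in each direction whose D26 and untreated CPM do not overlap (only 11 down), the 5 most abundant called genes in each direction, the 4 members of each list with the smallest p, and C3, C4a, C4b, Tnfrsf11b, Tnfrsf1b, Usf1 and Dact2. The members and lists were chosen with earlier results of these data known. The alternatives tried were other scaling, tests and filters, a replicate block, GC correction, either B6 control set, Xist as a covariate, equal weight of the genotypes, other thresholds and leaving out each library.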

Additional observations from a re-analysis of the deposited data

Results flagged for a closer look

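The deposited tables were filtered separately, so 113 of 12483 genes stand in both tables with treated libraries but not in the table of untreated colons alone, and these were outside the comparison. Fitted in the 12 libraries of those tables, 17 of them were called up and 0 down at D26 by edgeR. A gene low in all untreated colons and raised at D26 is just what that filter leaves out, so the direction is set by the filter and no support is drawn from it.

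The log2 fold changes were 3.21 for Ppbp, a platelet and myeloid chemokine, 2.78 for Calcb, 2.41 for Psca, a surface protein of stratified and gastric epithelium, 1.93 for Prss27, 1.85 for Fer1l4 and 1.72 for Lpo, a secreted peroxidase. They were 1.51 for Gm5414, 1.49 for Tmprss11d, 1.41 for Stra6, which takes up retinol, 1.39 for Adam8, 1.31 for Serpina3g and 1.04 for Wfdc17. The others were 0.95 for Clec4n, 0.9 for Gp49a, 0.87 for Btbd11, 0.87 for Chn2 and 0.72 for Hmox1, the inducible heme oxygenase. Groups of 3 libraries were too small for a test of single outlying samples.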

How the results depend on the processing

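The counts of 136 up and 58 down stayed within a factor of 1.5 with RLE scaling, other tests, the 10 CPM filter, control set 2 alone, equal weight of the genotypes and an adjusted p under 0.05. With control set 1 alone they were 80 up and 26 down, with Xist as a covariate 18 and 0, without the 3 D26 libraries lowest in Xist 39 and 0, with no minimum fold 568 and 512 and 28 and 5 with a fold of at least 2. Genes down were 27 with GC correction. In the 12 libraries without control set 2, genes down were 26 among the 12483 genes of the tables with treated libraries, as many as with control set 1 alone. These last genes and the fit without low-Xist libraries were chosen after seeing the data. Other than for thresholds, the cause was not tested.

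With the replicate number as a block the counts were 133 up and 50 down, 125 and 49 of them shared, and 20 genes were down with the block and GC correction. The numbers do not pair the libraries, since over 30 same-numbered pairs correlations ran from -0.253 to 0.248 (median -0.01), 8 of them over 0.1, and 4 libraries correlated best with their own number.

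Leaving out 1 library gave 68 to 175 genes up and 24 to 81 down, lowest without B6 replicate 2 at D26, and without B6 replicate 3 at D26 32 were down. The interaction gave 33 up and 5 down by DESeq2, 2 up with control set 1, and 0 to 13 up and 0 to 0 down with a library left out, 13 without B6 replicate 2 at D26. In B6 mice 58 genes were up and 23 down with GC correction, 89 up with control set 1, and 60 to 230 up and 84 to 269 down with a library left out, 60 up without replicate 2, 65 up and 84 down without replicate 3 and 230 up without replicate 1 at D26. In Irf1-/- mice 67 were up and 19 down by DESeq2, 10 and 3 with control set 1, 8 and 1 with control set 2, and 0 to 6 up and 0 to 0 down with a library left out, 0 without untreated replicate 2 or 3.

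Of 780 values of named called genes under other settings, 589 were also called with the same sign and 191 had the same sign without a call. Among the named genes not called, Slc30a5 turned to 0.0188 with GC correction and 0.0199 with block and GC correction, and Cox7b to 0.0018 and 0.0017. Genes that did not reach 5 CPM in 3 libraries of each table were not tested.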

Other observations

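Genes called at D26 but in none of the lists above include several of defined function, all chosen after their values were seen. Trim40, a ubiquitin ligase of the gut epithelium, was at 13.0 CPM (7.15 to 19.0) in untreated colons and 20.6 CPM (15.8 to 32.5) at D26, with a log2 FC of 0.92 ± 0.11 (edgeR adjusted p = 0.000223). Arl4c, a small GTPase, was at 9.03 CPM (7.19 to 10.9) and 17.2 CPM (13.0 to 21.6), with a log2 FC of 0.89 ± 0.12 (edgeR adjusted p = 0.000287). The D26 and untreated colons overlapped for Trim40 and were apart for Arl4c. Cbr2, a carbonyl reductase, and Fat2, a giant cadherin of stratified epithelium, were the only genes beside the 16 called in every fit that were called with Xist in the model, with log2 FC of 0.60 ± 0.077 and 0.81 ± 0.17 over all libraries.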
